A study of Mus musculus with 16 samples.

Results

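Brown and white fat cells carry different sets of transcription factors, and 10 of these factors were followed here in mice housed at 5 °C and at 30 °C, in brown fat (BAT) and in white fat of the inguinal depot (WAT). The 10 genes were named by symbol, as Zic1, Lhx8, Ebf1, Ebf2, Ebf3, Prdm16, Tbx15, En1, Tcf21 and Zfp423. All 10 were found among the 46078 gene identifiers of the count table. The comparison asked how each factor differed between the depots and whether that difference held after cold housing.

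RNA was measured in 16 libraries, in 4 groups of 4 called BAT_5C, BAT_30C, WAT_5C and WAT_30C. All came from female C57BL/6 wild-type mice aged 16 weeks that had been bred and weaned at 30 °C and were without food for 2 to 3 h before collection. The mice of BAT_5C and WAT_5C left 30 °C when 10 to 12 weeks old, were kept for 2 weeks at 18 °C, and were at 5 °C for the last 3 weeks. The mice of BAT_30C and WAT_30C stayed at 30 °C. No label states that libraries are separate mice, so p-values measure the spread between libraries, which may be technical.

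The libraries held 54264023 to 71289020 counts. Levels are given in CPM, a gene's counts relative to its library's total, scaled by the trimmed mean of M-values (TMM). Ucp1, the heat-producing uncoupling protein, was at 12388 to 13787 CPM in BAT_5C, 633.5 to 2019 CPM in BAT_30C, 6.08 to 398.6 CPM in WAT_5C and 0.0839 to 0.324 CPM in WAT_30C. For BAT the tissue is labelled as inguinal, against the title. Groups follow the titles and the stated housing. A further label contradicts their temperature in BAT_5C replicates 1 and 2 and in BAT_30C replicates 3 and 4. These are 4 of 8 BAT libraries. Their Ucp1 went with the titles, at 13308 and 12388 CPM in the cold pair and 759.3 and 1893 CPM in the warm pair. BAT libraries without a conflict had 12703 and 13787 CPM at 5 °C and 633.5 and 2019 CPM at 30 °C. Results without the 4 conflicting libraries rest on 2 libraries in each BAT group.

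Replicate 1 of WAT_5C went against its labels. It had 3 counts of Xist, an RNA made by females, where the other 15 libraries had 11136 to 88934, and 17183 counts of 4 Y-linked genes, where the others had 3 to 45. It is called WAT_5C replicate 1 below, and results that rest on it are given with and without it. Its summed mammary epithelium markers were at 15.9 CPM, against 863.1 to 1382 CPM in the other 7 WAT libraries. Its summed adipocyte markers were at 37991 CPM, against 9057 to 16171 CPM. Among the 4 WAT_5C libraries it was the highest for 9 of the 10 factors, Tcf21 being the exception.

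Brown and white adipocytes arise from different parts of the embryo, and brown fat of the back shares ancestry with skeletal muscle and skin of the trunk. Prdm16 and the early B cell factor Ebf2 act together with PPARγ to open and hold the chromatin of heat-producing genes, while Zfp423 and other repressors hold them shut in white fat cells. Zic1 and Lhx8 are used as markers of the classical brown lineage, and Tcf21 as a marker of white preadipocytes.

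Promoter sequences were taken from RefSeq (GRCm38.p6), from 250 bases before to 50 bases after a gene's start. They were matched by symbol for 8 of the 10 factors, in 10 promoters, since Ebf1 and Zfp423 have 2 starts each. Early B cell factors bind a palindrome with the core CCCNNGGG, where N is any base, and this was searched on both strands. It was present in 3 of the 10 promoters and in 13.7% of 32851 mouse promoters of 300 bases. The 3 matches began at position -21 of Ebf3, -28 of the second Zfp423 start and -66 of Tcf21, counted from the start site, and are written in capitals below. Zic1, the factor with the largest difference between the depots, is shown as well and has no match, as is Lhx8, the other classical brown marker. The windows lie on the minus strand at chr9:91365719-91366018 (Zic1), chr3:154330511-154330810 (Lhx8), chr7:137314396-137314695 (Ebf3), chr8:87804390-87804689 (Zfp423) and chr10:22820094-22820393 (Tcf21).
Zic1: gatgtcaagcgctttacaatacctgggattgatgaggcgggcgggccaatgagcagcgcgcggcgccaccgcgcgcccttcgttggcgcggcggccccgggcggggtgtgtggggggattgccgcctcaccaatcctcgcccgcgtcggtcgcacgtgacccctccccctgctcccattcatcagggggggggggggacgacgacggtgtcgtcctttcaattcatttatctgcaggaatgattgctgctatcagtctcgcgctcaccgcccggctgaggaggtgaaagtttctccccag
Lhx8: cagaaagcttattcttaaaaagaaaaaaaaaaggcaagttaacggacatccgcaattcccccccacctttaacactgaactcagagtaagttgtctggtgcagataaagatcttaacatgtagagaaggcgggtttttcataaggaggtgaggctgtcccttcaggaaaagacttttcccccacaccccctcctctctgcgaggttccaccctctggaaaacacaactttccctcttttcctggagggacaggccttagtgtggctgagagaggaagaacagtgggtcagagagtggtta
Ebf3: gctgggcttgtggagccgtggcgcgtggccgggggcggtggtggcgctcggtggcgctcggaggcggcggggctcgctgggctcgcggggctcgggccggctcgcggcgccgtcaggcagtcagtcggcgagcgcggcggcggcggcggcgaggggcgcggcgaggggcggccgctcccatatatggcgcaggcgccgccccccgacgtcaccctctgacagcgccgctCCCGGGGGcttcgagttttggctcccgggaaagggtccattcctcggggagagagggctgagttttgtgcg
Zfp423: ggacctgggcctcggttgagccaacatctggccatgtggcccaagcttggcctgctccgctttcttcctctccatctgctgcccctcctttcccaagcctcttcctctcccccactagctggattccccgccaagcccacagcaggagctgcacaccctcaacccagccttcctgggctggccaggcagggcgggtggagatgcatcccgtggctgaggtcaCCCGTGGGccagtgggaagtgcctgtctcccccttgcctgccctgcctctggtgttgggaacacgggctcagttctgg
Tcf21: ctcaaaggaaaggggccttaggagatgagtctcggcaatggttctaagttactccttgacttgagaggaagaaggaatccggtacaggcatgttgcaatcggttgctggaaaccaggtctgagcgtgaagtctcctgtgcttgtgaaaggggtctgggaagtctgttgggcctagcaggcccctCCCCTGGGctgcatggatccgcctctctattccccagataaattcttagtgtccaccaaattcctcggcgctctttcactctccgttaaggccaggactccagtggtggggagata
The Ebf3 window held 77.0% G and C with 46 CpG, the Zic1 window 65.3% with 31 CpG and the Lhx8 window 47.0% with 4 CpG, against medians of 52.7% and 7 CpG over all promoters. None of the 10 windows held TATAAA, present in 13.6% of all promoters. CCAAT was in 3 of the 10, against 37.4%, and GGGCGG in 5 of the 10, against 35.7%, each on either strand. None of these matches overlapped CCCNNGGG. A match is a description of letters and no evidence of binding.

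Of the 9 factors that passed the filter on low counts, 6 differed between BAT_5C and WAT_5C, 5 of them higher in BAT (31.8% of all genes) and 1 lower (40.5% of all genes), by the edgeR quasi-likelihood F-test with Benjamini-Hochberg adjustment over all 19481 genes. The depots differed widely: 72.4% of all genes passed in this comparison, so a count of 6 of 9 is no more than the share over all genes. Between BAT_30C and WAT_30C, 8 of 9 differed, 6 higher in BAT (34.5% of all genes) and 2 lower (35.3%), where 69.8% of all genes passed in either direction. With library totals in place of TMM, 4 were higher and 2 lower at 5 °C, where 10.9% of all genes were higher and 71.3% lower. At 30 °C they were 6 and 2, where 12.9% of all genes were higher and 66.1% lower. Tcf21 did not reach the filter. Without WAT_5C replicate 1, 7 of 9 differed at 5 °C, all higher in BAT, where 76.2% of all genes passed, and 8 of 9 at 30 °C, where 72.8% did. The plot by library shows all 10 factors.

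**Figure D1:**
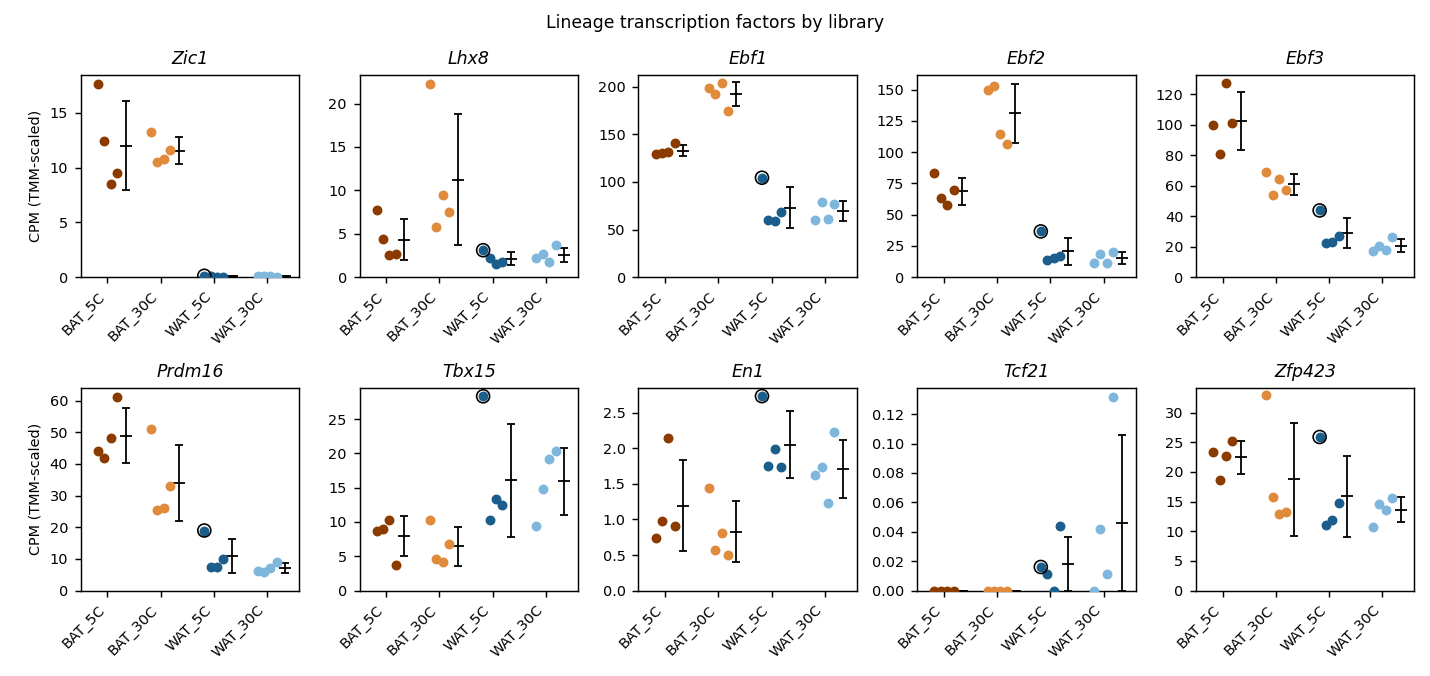
CPM (TMM-scaled, linear axes from 0, each with its own range) of the 10 factors in each library, by group, with the group mean and SD as black bars (n = 4) and WAT_5C replicate 1 ringed. Zic1 is near 0 in all 8 WAT libraries, while the ringed library is the highest of its group for 9 of 10 factors.

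Zic1, a zinc finger factor, set the depots apart most clearly. It was at 17.6, 12.4, 8.50 and 9.54 CPM in BAT_5C and 13.2, 10.5, 10.8 and 11.6 CPM in BAT_30C. In WAT it was at 0.128, 0.0661, 0.0238 and 0.0551 CPM in WAT_5C and 0.0865, 0.136, 0.0781 and 0 CPM in WAT_30C, which is 21 and 29 counts in the groups. Every BAT library was above every WAT library, and WAT_5C replicate 1, with 8 counts, lay in the range of the other WAT libraries. The log2 fold change was 7.48 ± 0.56 (SE; 178.5-fold) between BAT_5C and WAT_5C (adjusted p = 3.79e-08) and 7.20 ± 0.55 (146.6-fold) between BAT_30C and WAT_30C (adjusted p = 4.66e-08). The 2 differences did not differ beyond their error (0.28 ± 0.71, adjusted p = 0.821). Temperature did not change Zic1 past the threshold in BAT (log2 fold change 0.06 ± 0.21, adjusted p = 0.821), and in WAT it was too low to be tested.

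Lhx8, a LIM homeobox factor, was also higher in BAT, but by less. BAT_5C had 7.72, 4.41, 2.59 and 2.64 CPM and BAT_30C had 22.3, 5.73, 9.45 and 7.52 CPM. WAT_5C had 3.11, 2.24, 1.51 and 1.74 CPM and WAT_30C had 2.23, 2.63, 1.77 and 3.71 CPM. The groups overlapped at 5 °C and did not at 30 °C. At 30 °C the log2 fold change was 2.12 ± 0.45 (adjusted p = 0.00067). At 5 °C it was 1.02 ± 0.44 and missed the threshold (adjusted p = 0.0506), and without WAT_5C replicate 1 it was 1.23 ± 0.48 and passed (adjusted p = 0.0289). Without the 4 BAT libraries with conflicting labels it was 0.29 ± 0.48 (adjusted p = 0.621), and with library totals 0.12 ± 0.44 (adjusted p = 0.80), so its size at 5 °C rests on these choices. Over all alternatives its adjusted p was 0.0079 to 0.80.

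All 3 early B cell factors were higher in BAT at both temperatures, with no overlap between the depots. Ebf1, which acts in fat cell formation as well as in B cells, had 129.3, 130.5, 131.0 and 141.2 CPM in BAT_5C and 199.2, 192.5, 203.5 and 174.5 CPM in BAT_30C. In WAT_5C it had 104.5, 60.1, 59.3 and 68.1 CPM, the first being replicate 1, and in WAT_30C 59.7, 79.3, 61.0 and 77.0 CPM. The log2 fold change was 0.87 ± 0.16 at 5 °C (adjusted p = 0.000171), 1.07 ± 0.10 without WAT_5C replicate 1 (adjusted p = 2.01e-07), and 1.47 ± 0.16 at 30 °C (adjusted p = 1.32e-06). The Ebf1 difference at 5 °C depended on scaling: with library totals it was -0.023 (adjusted p = 0.844). That setting moved the median of all genes to -1.12 between BAT_5C and WAT_5C and to -0.881 between BAT_30C and WAT_30C, where TMM gave -0.19 and -0.0334.

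Ebf2, the family member tied to brown and beige precursors, had the widest difference of the 3 at 30 °C, and at 5 °C one close to that of Ebf3. BAT_5C had 83.5, 63.3, 57.6 and 69.9 CPM and BAT_30C had 149.6, 153.3, 114.5 and 106.8 CPM. WAT_5C had 36.6, 13.8, 15.4 and 17.0 CPM and WAT_30C had 11.5, 18.7, 11.4 and 20.6 CPM. The 4 groups fell in the order BAT_30C, BAT_5C and then both WAT groups, which overlapped. The depot difference was 3.08 ± 0.31 on the log2 scale at 30 °C (8.43-fold, adjusted p = 5.74e-07). At 5 °C it was 1.73 ± 0.29 (3.31-fold, adjusted p = 8.61e-05), and 2.14 ± 0.22 without WAT_5C replicate 1 (adjusted p = 4.54e-07).

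Ebf3 had 99.9, 80.8, 127.5 and 101.2 CPM in BAT_5C and 68.8, 53.8, 64.1 and 57.2 CPM in BAT_30C. WAT_5C had 43.8, 22.3, 23.2 and 26.8 CPM and WAT_30C had 17.4, 20.7, 17.7 and 26.7 CPM. Unlike Ebf1 and Ebf2, it was highest in the cold brown fat. The depot difference was 1.82 ± 0.21 at 5 °C (adjusted p = 2.36e-06), 2.07 ± 0.17 without WAT_5C replicate 1 (adjusted p = 2.41e-08), and 1.57 ± 0.21 at 30 °C (adjusted p = 1.09e-05).

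Prdm16, the zinc finger coregulator that maintains brown identity, was higher in BAT with no overlap. It had 44.0, 42.0, 48.2 and 61.3 CPM in BAT_5C and 51.2, 25.6, 26.2 and 33.2 CPM in BAT_30C. In WAT_5C it had 19.0, 7.52, 7.48 and 9.89 CPM and in WAT_30C 6.08, 5.86, 7.21 and 9.10 CPM. Replicate 1 of BAT_30C and replicate 1 of WAT_5C were each well above the rest of their group. The log2 fold change was 2.16 ± 0.30 at 5 °C (4.47-fold, adjusted p = 1.45e-05), 2.54 ± 0.25 without WAT_5C replicate 1 (adjusted p = 2.05e-07), and 2.27 ± 0.30 at 30 °C (4.82-fold, adjusted p = 1.04e-05).

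Tbx15 and En1 were the factors lower in BAT. Tbx15, a T-box factor of subcutaneous and brown depots, had 8.69, 9.04, 10.3 and 3.66 CPM in BAT_5C and 28.3, 10.3, 13.3 and 12.5 CPM in WAT_5C, and the highest BAT_5C library was level with the lowest WAT_5C library. BAT_30C had 10.3, 4.64, 4.09 and 6.83 CPM and WAT_30C had 9.41, 14.8, 19.1 and 20.3 CPM, with 1 library of each group overlapping. The log2 fold change was -1.30 ± 0.40 at 30 °C (adjusted p = 0.00878), a call lost without the 4 BAT libraries with conflicting labels (-1.14, adjusted p = 0.096). At 5 °C it was -1.02 ± 0.39 (adjusted p = 0.0296), and without WAT_5C replicate 1 it was -0.62 ± 0.35 and no longer passed (adjusted p = 0.119). Without BAT_5C replicate 4 it was -0.78 (adjusted p = 0.0853), and without the 4 conflicting libraries -1.20 (adjusted p = 0.0787).

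En1, a homeobox factor of the embryonic dermomyotome, which gives rise to back skin, muscle and brown fat, was at a low level in every group. It had 0.736, 0.982, 2.14 and 0.914 CPM in BAT_5C and 1.44, 0.573, 0.810 and 0.500 CPM in BAT_30C. WAT_5C had 2.74, 1.75, 2.00 and 1.74 CPM and WAT_30C had 1.62, 1.74, 1.24 and 2.23 CPM. A single BAT library overlapped WAT at each temperature, replicate 3 of BAT_5C and replicate 1 of BAT_30C. At 30 °C the log2 fold change was -1.04 ± 0.37 (adjusted p = 0.0219), a call lost without BAT_30C replicate 2 (adjusted p = 0.067), BAT_30C replicate 4 (0.0687) or WAT_30C replicate 4 (0.0644), and without the 4 BAT libraries with conflicting labels (-0.82, 0.135). At 5 °C it was -0.78 ± 0.37 and missed the threshold (adjusted p = 0.071), and without BAT_5C replicate 3 it was -1.22 (adjusted p = 0.0067). With all libraries En1 passed at 5 °C by DESeq2 (adjusted p = 0.0451), limma-voom (0.0259) and with library totals (0.000764).

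Zfp423, a preadipocyte factor that restrains Ebf2 in white fat, did not differ past the threshold between the depots at either temperature by edgeR with all libraries. It had 23.3, 18.6, 22.8 and 25.3 CPM in BAT_5C and 33.0, 15.8, 13.0 and 13.2 CPM in BAT_30C. In WAT_5C it had 25.9, 11.05, 11.9 and 14.7 CPM and in WAT_30C 10.6, 14.6, 13.7 and 15.6 CPM. The highest value in 2 of these groups came from replicate 1, of BAT_30C and of WAT_5C. The log2 fold change was 0.50 ± 0.30 at 5 °C (adjusted p = 0.147) and 0.46 ± 0.30 at 30 °C (adjusted p = 0.186), and both were negative with library totals. Without WAT_5C replicate 1 the difference at 5 °C was 0.83 ± 0.27 (adjusted p = 0.0123), with no overlap. With all libraries it passed at 5 °C by limma-voom (0.78, adjusted p = 0.00146). Without BAT_30C replicate 1 the difference at 30 °C was 0.042 (edgeR, adjusted p = 0.887).

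Tcf21, the basic helix-loop-helix marker of white preadipocytes, had 0 counts in all 8 BAT libraries. It had 1, 1, 0 and 4 counts in WAT_5C and 0, 4, 1 and 11 counts in WAT_30C. The bound for Tcf21 took 3 counts over all of BAT_30C as the floor, which is 0.0147 CPM. The level measured in WAT_30C was 2.92-fold above that floor. That bound rests on WAT_30C replicate 4, with 11 of the 16 counts: without it the bound was 1.18-fold, and without each other library of these groups it was 2.14-fold to 4.04-fold. The 6 counts of WAT_5C were at the floor of BAT_5C, so no difference was detectable at this depth. The floor covers the counting error of BAT only, since the WAT counts were taken as measured.

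**Figure D2:**
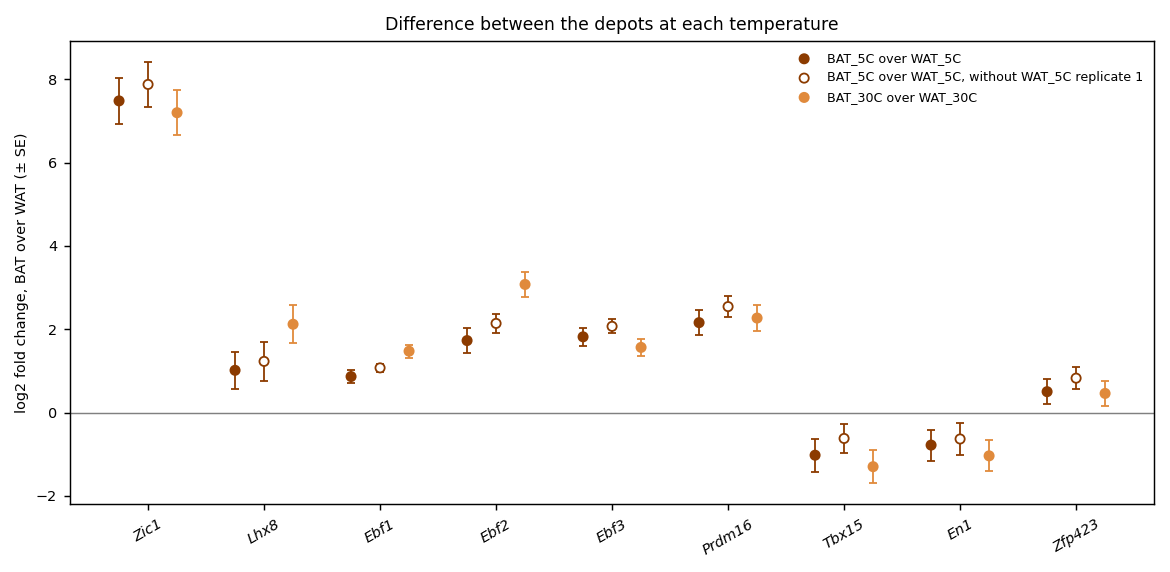
Log2 fold change of BAT over WAT with its SE for the 9 factors tested, at 5 °C with and without WAT_5C replicate 1 and at 30 °C (edgeR, linear axis, positive is higher in BAT). Zic1 lies above 7 at both temperatures, 5 other factors lie between 0.87 and 3.08, Tbx15 and En1 lie below 0, and Zfp423 lies at 0.50 and 0.46, all with every library included; without WAT_5C replicate 1 Zfp423 lies at 0.83 at 5 °C.

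The libraries of the depots did not overlap for 5 of the 9 factors tested at 5 °C, where 61.4% of all genes did not overlap, and for 6 of 9 at 30 °C, where it was 66.9%. The 5 were Zic1, Ebf1, Ebf2, Ebf3 and Prdm16, and Lhx8 joined them at 30 °C. These 5 were higher in BAT and passed at both temperatures, with and without WAT_5C replicate 1.

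Cold housing changed 4 of the 9 factors tested in BAT, where 59.5% of all 16213 genes passed. Ebf1, Ebf2 and Lhx8 fell, as did 30.3% of all genes, and Ebf3 rose, as did 29.2%. Ebf1 averaged 133.0 ± 5.49 CPM in BAT_5C and 192.4 ± 12.8 CPM in BAT_30C (SD, n = 4 each), a log2 fold change of -0.53 ± 0.06 (adjusted p = 7.75e-05). Ebf2 averaged 68.6 ± 11.1 CPM in BAT_5C and 131.1 ± 23.8 CPM in BAT_30C, a log2 fold change of -0.93 ± 0.15 (adjusted p = 0.000486). Ebf3 averaged 102.4 ± 19.2 CPM in BAT_5C and 61.0 ± 6.75 CPM in BAT_30C, a log2 fold change of 0.75 ± 0.13 (adjusted p = 0.00079). For all 3 the BAT_5C and BAT_30C libraries did not overlap, as for 55.2% of all genes.

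In the 4 BAT libraries without a conflict in their temperature labels, these changes passed as well: -0.52 for Ebf1 (adjusted p = 0.0137), -1.24 for Ebf2 (0.00283) and 0.90 for Ebf3 (0.0113). With library totals, which moved the median of all genes to -0.433 in this comparison, Ebf3 was higher by 0.36 (adjusted p = 0.0398). Lhx8 averaged 4.34 ± 2.41 CPM in BAT_5C and 11.3 ± 7.52 CPM in BAT_30C, with overlap, and its log2 fold change was -1.38 ± 0.48 (adjusted p = 0.0322). That call was lost without BAT_30C replicate 1 (-0.79, adjusted p = 0.106) and without BAT_5C replicate 2, 3 or 4 (adjusted p = 0.0653, 0.083 and 0.0861).

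Prdm16 averaged 48.9 ± 8.66 CPM in BAT_5C and 34.03 ± 11.9 CPM in BAT_30C and missed the threshold (log2 fold change 0.53 ± 0.22, adjusted p = 0.0639). BAT_30C replicate 1, at 51.2 CPM, was the only library of its group within the range of BAT_5C, and without it the log2 fold change was 0.81 (adjusted p = 0.00133). With all libraries Prdm16 passed by DESeq2 (0.55, adjusted p = 0.0174), limma-voom (0.65, 0.0136) and with a replicate block (0.57, 0.0391). That block joins equal replicate numbers across the temperatures, which were not shown to pair libraries (residual correlations -0.242 to 0.0852). Zfp423 was at 0.27 ± 0.28 with all libraries (adjusted p = 0.443) and 0.70 without BAT_30C replicate 1 (adjusted p = 0.00105). BAT_30C replicate 1 was the highest of its group for 7 of the 10 factors. Tbx15 (0.29 ± 0.35) and En1 (0.52 ± 0.43) did not pass.

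In BAT the stromal progenitor markers, a list of 11 genes, summed to 593.1 to 800.5 CPM in BAT_5C and 807.9 to 923.8 CPM in BAT_30C, without overlap. Of the 11, 1 rose and 4 fell in the cold (0 and 6 with library totals), and none was at 0 in either group. The 10 T and NK cell markers summed to 1.93 to 5.28 CPM in BAT_5C and 8.52 to 12.0 CPM in BAT_30C, with 8 lower and none at 0. The 8 adipocyte markers summed to 24392 to 26472 CPM in BAT_5C and 22151 to 24948 CPM in BAT_30C, with overlap, and none was at 0. Their part in the changes of the Ebf genes was not tested. In bulk tissue, fewer cells of a type and less RNA per cell cannot be told apart.

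In WAT, cold housing changed 0 of the 8 factors tested, by edgeR, with Zic1 and Tcf21 too low to test. Only 0.0632% of all 18975 genes, 12 in number, passed in this comparison, and 3430 had an unadjusted p under 0.05. DESeq2 called 1119 genes and limma-voom 2268, and neither called any of the 8 factors. Without WAT_5C replicate 1, 408 genes (2.11%) passed and again 0 of the 8 factors. Prdm16 had the smallest adjusted p but one, with 10.97 ± 5.45 CPM in WAT_5C and 7.06 ± 1.48 CPM in WAT_30C (log2 fold change 0.61 ± 0.32, adjusted p = 0.328). Ebf3 was at 0.47 ± 0.24 (adjusted p = 0.322). Without WAT_5C replicate 1 these were 0.20 ± 0.18 and 0.19 ± 0.16. Ebf2 was at 0.38 ± 0.35 with that library and -0.05 ± 0.23 without it.

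**Figure D3:**
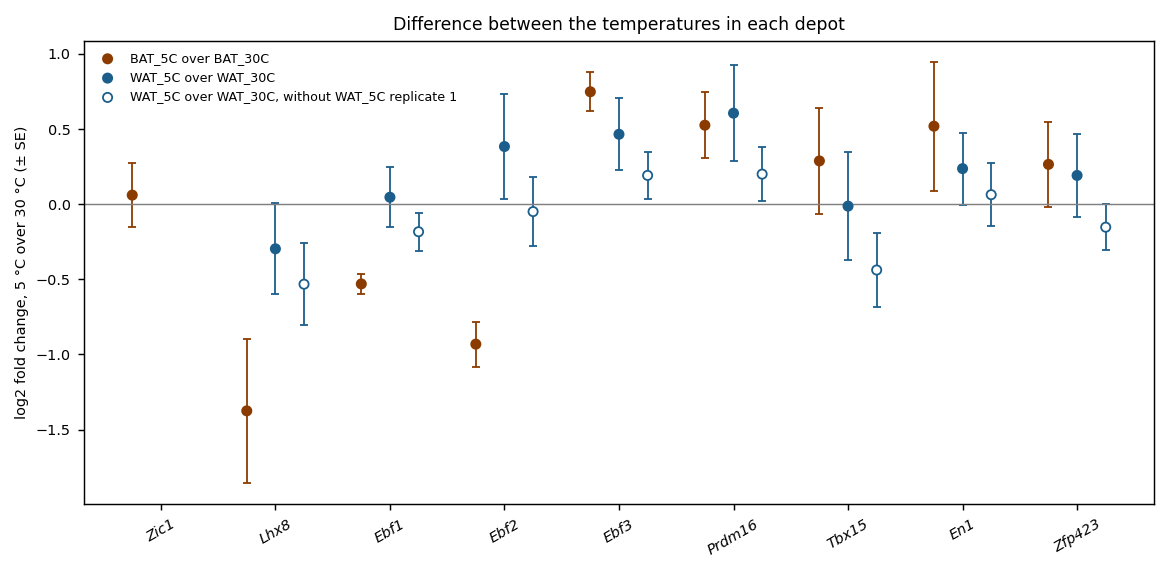
Log2 fold change of 5 °C over 30 °C with its SE for the factors tested in BAT, and in WAT with and without WAT_5C replicate 1 (edgeR, linear axis, positive is higher at 5 °C; Zic1 was not tested in WAT). In BAT, Lhx8, Ebf1 and Ebf2 lie below 0 and Ebf3 above it, while every WAT value without replicate 1 lies between -0.53 and 0.20.

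Whether a depot difference changed with temperature was tested as the cold response in BAT minus that in WAT. Of the 9 factors, 1 passed, Ebf2, with a negative value, where 20.8% of all genes passed, 8.34% positive and 12.5% negative. Its value was -1.35 ± 0.40 on the log2 scale (adjusted p = 0.0279), and -0.87 ± 0.28 without WAT_5C replicate 1 (adjusted p = 0.0291, where 31.3% of all genes passed). The call rests on several libraries: the adjusted p was 0.0522 to 0.0601 without BAT_5C replicate 2 or 3, BAT_30C replicate 1 or 2, or WAT_30C replicate 1 or 3. Without the 4 BAT libraries with conflicting labels the value was -1.61 and its adjusted p was 0.097.

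For the other 8 factors no change of the depot difference passed the threshold, which does not show that the differences were equal. Ebf1 came nearest, at -0.61 ± 0.22 (adjusted p = 0.0645), and it passed with library totals (-0.65, adjusted p = 0.00689), by limma-voom (-0.43, 0.019), and without WAT_5C replicate 2 (-0.69, 0.0391) or 3 (-0.70, 0.0418). Without both WAT_5C replicate 1 and BAT_30C replicate 1, Zfp423 (0.84, adjusted p = 0.00734) and Ebf3 (0.62, 0.0488) passed along with Ebf2. Lhx8 was at -1.11 ± 0.62 (adjusted p = 0.226). Without WAT_5C replicate 1, Ebf3 was at 0.56 ± 0.21 (adjusted p = 0.0553). Prdm16 was at -0.11 ± 0.41 with all libraries and 0.33 ± 0.31 without that library, and neither passed (adjusted p = 0.884 and 0.442).

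The 3 Ebf genes together summed to 303.9 ± 19.6 CPM in BAT_5C and 384.4 ± 33.8 CPM in BAT_30C, values with no test. They summed to 122.7 ± 42.0 CPM in WAT_5C and 105.4 ± 18.7 CPM in WAT_30C. Their make-up, a measure within each library that does not depend on scaling, is given without a test as well. Ebf2 made up 22.6 ± 3.46% of the summed Ebf counts in BAT_5C, 33.9 ± 3.86% in BAT_30C, 16.3 ± 2.43% in WAT_5C and 14.5 ± 1.96% in WAT_30C (SD, n = 4 each). Ebf3 made up 33.5 ± 4.71%, 15.9 ± 1.64%, 23.6 ± 0.33% and 19.5 ± 1.65% in the same 4 groups. The BAT_5C and BAT_30C shares did not overlap for either gene, at 18.2 to 26.7% against 30.0 to 38.4% for Ebf2 and 29.4 to 40.3% against 13.5 to 16.9% for Ebf3.

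In every BAT_5C library Ebf3 had more counts than Ebf2, by a ratio of 1.20, 1.28, 2.21 and 1.45. In every BAT_30C library it had fewer, at 0.460, 0.351, 0.560 and 0.536. All 8 WAT libraries had more Ebf3 than Ebf2 counts, by 1.20 to 1.61 in WAT_5C and 1.10 to 1.55 in WAT_30C. WAT_5C replicate 1 had the highest Ebf2 to Ebf1 ratio of the WAT libraries, at 0.351, and was below all BAT libraries, whose lowest was 0.440. Reads that fall in antisense genes could add to 2 of the counts if strand was not used, since 6.12% of the Ebf2 exon bases and 3.85% of the Ebf3 exon bases overlap an antisense gene in GENCODE M21.

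**Figure D4:**
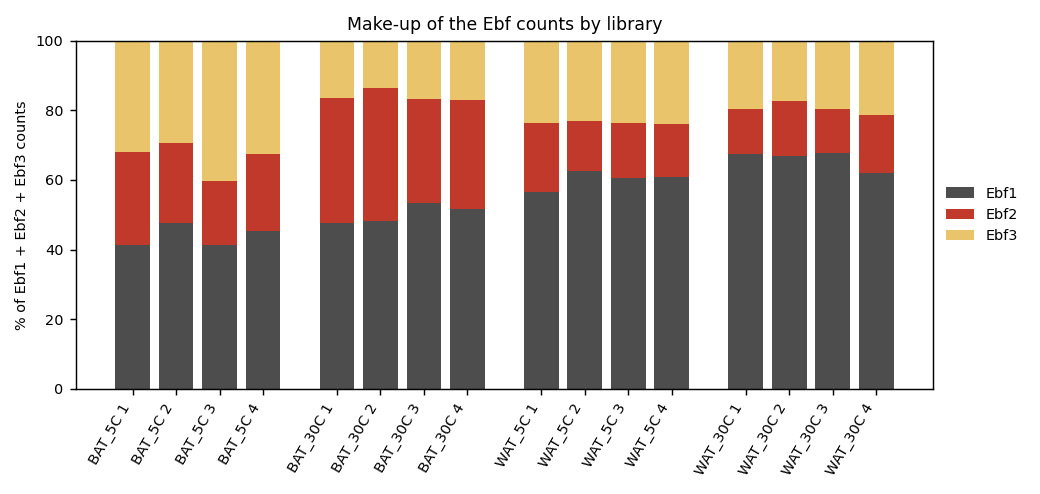
Share of Ebf1, Ebf2 and Ebf3 in their summed counts in each of the 16 libraries (stacked bars, percent). Ebf2 makes up 30.0 to 38.4% in BAT_30C and 18.2 to 26.7% in BAT_5C, and Ebf3 makes up 29.4 to 40.3% in BAT_5C and 13.5 to 16.9% in BAT_30C.

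Compared per kilobase of exon (union of GENCODE M21 exons), Ebf1 had the highest mean level of the 10 factors in each group, 13.6 ± 0.56 CPM per kb in BAT_5C, 19.7 ± 1.31 in BAT_30C, 7.48 ± 2.19 in WAT_5C and 7.10 ± 1.06 in WAT_30C. In BAT_30C, Ebf2 followed at 18.9 ± 3.44 CPM per kb, within the spread of Ebf1. In BAT_5C the next were Ebf3 at 11.1 ± 2.08 and Ebf2 at 9.90 ± 1.61 CPM per kb, which lay within each other's spread. In both WAT groups the next was Tbx15, at 4.30 ± 2.20 CPM per kb in WAT_5C and 4.25 ± 1.32 in WAT_30C, a place it did not hold in BAT, with 2.12 ± 0.78 in BAT_5C and 1.73 ± 0.76 in BAT_30C. Prdm16 was at 5.25 ± 0.93 and 3.65 ± 1.28 CPM per kb in BAT_5C and BAT_30C, and at 1.18 ± 0.59 and 0.758 ± 0.16 in WAT_5C and WAT_30C. Zic1 was at 2.11 ± 0.72 CPM per kb in BAT_5C, where it and Tbx15 lay within each other's spread, and at 2.02 ± 0.22 in BAT_30C.

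For each factor the genes with the most similar pattern were found by Pearson correlation of log2 CPM over the 16 libraries. The difference between BAT and WAT libraries enters every r, so r describes the patterns and carries no test. The closest were Chchd7 to Zic1 (r = 0.988), Thra to Ebf1 (0.989), Sec22a to Ebf2 (0.991), Aph1b to Ebf3 (0.989) and Ppp2r1a to Prdm16 (0.986). Hoxc5 came next for Prdm16, at 25.1 and 18.4 CPM in BAT_5C and BAT_30C and 5.37 and 3.65 CPM in WAT_5C and WAT_30C (r = 0.985). For Lhx8 it was AI606473 (0.949), for Tbx15 Epdr1 (0.939), for En1 Vit (0.932) and for Zfp423 Rxra (0.938). Each second gene, Plxnd1 for Zic1, Sft2d3 for Lhx8, Tcim for Ebf1, Radil for Ebf2, Mblac2 for Ebf3, Slc38a4 for Tbx15, Mt3 for En1 and Pcdhb22 for Zfp423, had r of 0.887 or more.

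Relatives of the 10 factors were tested as a list of 14 paralogs, of which 10 passed the filter. This list and all others below were chosen with earlier results of these data known. At 5 °C, 5 were higher and 3 lower in BAT (median log2 fold change 0.70, against -0.19 over all genes), and at 30 °C 6 were higher and 2 lower (1.10, against -0.0334). With library totals the splits were 4 higher and 5 lower and 4 higher and 3 lower. For this and all lists below, 31.8% of all genes were higher and 40.5% lower at 5 °C, and 34.5% and 35.3% at 30 °C. With library totals these shares were 10.9% and 71.3% at 5 °C, and 12.9% and 66.1% at 30 °C. Zic4, the neighbour of Zic1 on the opposite strand, had the same depot pattern, at 0.945 ± 0.50 CPM in BAT_5C and 3.86 ± 0.97 CPM in BAT_30C, with 1 count in all of WAT_5C and 3 in WAT_30C (adjusted p = 4.79e-07 and 6.45e-08). Zic4 fell in BAT in the cold (log2 fold change -2.04, adjusted p = 0.0008), where Zic1 did not pass. The exons of Zic1 and Zic4 overlap by 60 bases, 1.05% of those of Zic1.

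Mecom, the closest relative of Prdm16, was higher in BAT by 1.30 at 5 °C and 1.66 at 30 °C on the log2 scale (adjusted p = 7.36e-06 and 8.16e-07). Tcf15, a factor of the paraxial mesoderm, averaged 18.8 ± 2.4 CPM in BAT_30C and 3.23 ± 0.50 CPM in WAT_30C (adjusted p = 1.77e-06). Msc, a relative of Tcf21, was lower in BAT, with log2 fold changes of -3.70 at 5 °C and -4.06 at 30 °C (adjusted p = 4.02e-06 and 1.79e-06). Zfp521, the relative of Zfp423 that also restrains Ebf factors, was lower in BAT, at 3.40 ± 0.42 CPM in BAT_5C and 13.0 ± 2.3 CPM in WAT_5C (adjusted p = 2.58e-07).

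Of 16 cofactors of the brown programme, 11 were higher and 1 lower in BAT at 5 °C (median 1.23), and 13 were higher and 0 lower at 30 °C (median 1.18). With library totals the split was 7 higher and 7 lower at 5 °C and 7 and 5 at 30 °C. Over all genes, with TMM, 31.8% were higher and 40.5% lower at 5 °C, and 34.5% and 35.3% at 30 °C. The smallest adjusted p-values at 5 °C were those of Esrra, at 239.2 ± 14 CPM in BAT_5C and 40.6 ± 11 CPM in WAT_5C (adjusted p = 6.53e-09), Esrrg, at 37.9 ± 6.0 CPM in BAT_5C and 3.85 ± 1.1 CPM in WAT_5C (1.62e-08), and Cebpb, at 59.6 ± 5.3 CPM in BAT_5C and 7.06 ± 0.64 CPM in WAT_5C (9.83e-08). Esrra and Esrrg encode estrogen-related receptors, which drive mitochondrial genes, and Cebpb encodes a partner of Prdm16. Ctbp1, a corepressor bound by Prdm16, was higher in BAT_5C by 0.56 (adjusted p = 6.94e-06).

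Of 10 repressors of the brown programme, 2 were higher and 8 lower in BAT at 5 °C (median -1.28), and 2 were higher and 7 lower at 30 °C (median -0.64). With library totals 1 was higher and 9 lower at 5 °C and 0 and 8 at 30 °C. The shares of all genes, with TMM, were 31.8% higher and 40.5% lower at 5 °C, and 34.5% and 35.3% at 30 °C. With TMM the higher pair was Rb1 and Nr1h3 at both temperatures. Hoxc10, a homeobox gene of the hind body that opposes browning, had 0 counts in all 8 BAT libraries, against 4183 counts in WAT_5C and 3003 in WAT_30C. With the same floor it was at least 688-fold lower in BAT_5C and at least 547-fold lower in BAT_30C, and with it at that bound the list medians were still -1.28 and -0.64. Foxp1 (-2.55, adjusted p = 6.46e-08) and Foxp4 (-1.55, 1.03e-06) were also lower at 30 °C, with Rbl1 at -0.91 (3.53e-05). At 5 °C Rbl1 was at -2.02 (2.43e-08) and Nrip1, a corepressor of nuclear receptors, at -2.08 (7.66e-07).

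Of 21 patterning factors of somite and mesenchyme, 18 passed the filter, 5 higher and 9 lower in BAT at 5 °C (median -0.93) and 5 higher and 8 lower at 30 °C (median -0.84). At 5 °C the split was 7 and 7 without WAT_5C replicate 1. With library totals it was 2 higher and 12 lower at 5 °C and 2 and 9 at 30 °C. Among all genes, with TMM, 31.8% were higher and 40.5% lower at 5 °C, and 34.5% and 35.3% at 30 °C. Tbx5, a factor of the forelimb field, was at 8.68 ± 0.77 CPM in BAT_5C and 1.41 ± 0.19 CPM in WAT_5C (adjusted p = 1.9e-07), and at 21.2 ± 4.6 CPM in BAT_30C and 1.29 ± 0.45 CPM in WAT_30C (1.04e-08). Meox2 was higher in BAT_30C by 1.21 (adjusted p = 1.57e-05). Tbx1 was at 0.0827 CPM in BAT_5C and 1.95 CPM in WAT_5C (adjusted p = 9.66e-06) and Osr1 at 1.47 CPM in BAT_5C and 8.68 CPM in WAT_5C (2.77e-07). Gata6 was lower in BAT_5C by a log2 fold change of -1.98 (adjusted p = 2.2e-05).

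Of 17 measured genes of BMP and Wnt input, the signals that set the commitment of fat precursors, 4 were higher and 8 lower in BAT at 5 °C (median -0.46) and 6 higher and 7 lower at 30 °C (median 0.08). With library totals, 1 was higher and 14 lower at 5 °C and 0 higher and 13 lower at 30 °C. Over all genes the TMM shares were 31.8% higher and 40.5% lower at 5 °C, and 34.5% and 35.3% at 30 °C. Bmp8b, a BMP made by active brown fat, was at 119.4 ± 25 CPM in BAT_5C and 0.186 ± 0.13 CPM in WAT_5C (adjusted p = 2.53e-07). Grem1, a BMP antagonist, had 1 count in BAT_5C and 3 in BAT_30C, against 5.36 CPM in WAT_5C and 6.90 CPM in WAT_30C (adjusted p = 5.09e-07 and 3.71e-07). Bmp7 was lower in BAT, at -3.40 and -3.15 at 5 and 30 °C (6.81e-07 and 1.35e-06). Smad1 was at -0.86 at 5 °C (8.79e-07), Ctnnb1 at 0.67 at 30 °C (1.82e-06). Bmp4 was at 0.565 CPM in BAT_30C and 2.27 CPM in WAT_30C (4.09e-06).

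Like all lists here, the brown and white fat genes were chosen with earlier results of these data known. None of the lists is an independent check of the depots. Of 15 brown fat genes, 14 were higher and 1 lower in BAT at 5 °C (median 4.32). At 30 °C 13 were higher and 1 lower (median 6.27). The lower one was Epsti1, at 1.64 CPM in BAT_5C and 74.0 CPM in WAT_5C (adjusted p = 2.34e-08). Of 10 white fat genes, 0 were higher and 10 lower in BAT at 5 °C (median -2.26) and 1 was higher, Nnat, and 8 lower at 30 °C (median -1.64; 0 and 8 with library totals). Hoxc9 was at 0.0716 CPM in BAT_5C and 5.73 CPM in WAT_5C (adjusted p = 1.35e-07).

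In BAT the cold raised 3 and lowered 2 of the 16 brown cofactors, 4 and 5 of 9 repressors tested, 2 and 4 of 10 paralogs, 3 and 3 of 13 patterning factors, 4 and 5 of 15 BMP and Wnt genes, 10 and 2 of 15 brown fat genes and 1 and 6 of 9 white fat genes. With library totals these were 2 and 9, 2 and 6, 1 and 7, 2 and 5, 2 and 9, 9 and 3, and 1 and 6. Esrra rose (log2 fold change 1.01, adjusted p = 1.07e-06), while Zfp521 (-1.13, 0.000121), Rbl1 (-1.61, 1.2e-05), Tbx5 (-1.29, 9.17e-05) and Smad1 (-1.17, 1.34e-05) fell. Over all genes 29.2% rose and 30.3% fell with TMM, and 14.3% and 54.5% with library totals. In WAT with all libraries, 1 gene of these 7 lists passed, Dio2 among the brown fat genes (adjusted p = 0.0407). Without WAT_5C replicate 1, 9 of the 15 brown fat genes rose and 1 of the 10 white fat genes fell, and with library totals these were 5 and 1, while none of the other 5 lists had a gene that passed in either setting.

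Cell type markers moved with the depot in both directions. Each range below is of the summed CPM of a list. Of 11 stromal progenitor markers, 0 were higher and 10 lower in BAT at each temperature, and the sum was 593.1 to 800.5 in BAT_5C, 807.9 to 923.8 in BAT_30C, 1965 to 2897 in WAT_5C and 1672 to 2345 in WAT_30C. The 9 B cell markers were counted because Ebf1 also acts in B cells, and were all lower in BAT. Their sum was 3.20 to 11.9 in BAT_5C, 7.21 to 8.26 in BAT_30C, 378.3 to 1342 in WAT_5C and 994.9 to 1454 in WAT_30C. Within WAT_5C, replicate 1 had the lowest B cell sum, 378.3, the highest adipocyte sum, 37991, and the highest Ebf1, 104.5 CPM. The part of B cells in the Ebf1 counts was not tested.

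The 10 T and NK cell markers were all lower in BAT at both temperatures, and their sum was 115.1 to 518.6 in WAT_5C and 545.4 to 781.8 in WAT_30C. So were the 6 macrophage markers (172.9 to 255.3 in BAT_5C, 199.2 to 258.5 in BAT_30C, 682.0 to 1499 in WAT_5C and 813.5 to 1112 in WAT_30C). All 11 mammary epithelium markers tested were lower in BAT (in the same order of groups, 0.396 to 60.9, 0.526 to 21.8, 15.9 to 1382 and 863.1 to 1376), with Wap at 0 in BAT_5C. The 6 endothelium markers were all higher in BAT (1280 to 1334, 1184 to 1413, 445.6 to 709.3 and 394.1 to 503.3). With library totals 4 of these 6 were higher and 0 lower at 5 °C, and 4 higher and 1 lower at 30 °C. Of the 8 pericyte and smooth muscle markers, 6 were higher and 2 lower in BAT at each temperature (1220 to 1313, 1061 to 1261, 527.4 to 625.5 and 416.3 to 526.5). At 5 °C these were 3 higher and 4 lower with library totals.

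Of the 8 adipocyte markers, 3 were higher and 1 lower in BAT at 5 °C, 6 higher and 1 lower without WAT_5C replicate 1, and 6 higher and 0 lower at 30 °C. With library totals they were 1 higher and 3 lower at 5 °C and 4 higher and 1 lower at 30 °C. Skeletal muscle markers ranged widely within groups (275.9 to 2596, 67.6 to 1549, 22.8 to 6620 and 124.4 to 9625), with 2 of 12 higher in BAT at 5 °C and 1 at 30 °C. Of 8 neuron and Schwann cell markers, 6 were tested, 1 higher and 2 lower in BAT at 5 °C and 1 higher and 3 lower at 30 °C, with Th at 0 in WAT_30C. Of 5 mesothelium markers, 2 were tested, 1 higher and 1 lower at each temperature, with Upk3b at 0 in BAT_5C. The part of these cell types in the depot differences of the 10 factors was not tested.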

How the data were processed

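RNA from 16 fat libraries was poly(A)-selected and prepared with a TruSeq RNA kit, per the labels' protocols. The authors deposited a table of raw counts per Ensembl gene. Trim Galore and TopHat are named, without versions, per the submitters' processing notes. Which counter, strand setting, build and annotation were used is not given in the sources used here. Gene names, exon lengths and promoters come from GENCODE M21 and RefSeq GRCm38.p6, and no coordinates of the counting are printed. Of 46078 identifiers, 45143 were named and 935 were not, with 0.0403 to 0.117% of the counts per library.

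The filterByExpr rule (at least 10 counts, total at least 15) chose the genes tested, and TMM set the scale. The edgeR 4.0.16 quasi-likelihood F-test (R 4.3.3) gave all main p-values, with Benjamini-Hochberg adjustment across the genes of each fit and a call at 0.05. The depot comparisons and the difference of cold responses came from 1 fit of 16 libraries, and temperature was tested in each depot apart. The SE was taken as the size of the log2 fold change divided by the root of its F value. No 2 libraries of a group were near-identical: over 24 pairs, chi-square divided by its degrees of freedom was 19.9 or more. Alternatives were RLE factors, library totals, no filter, DESeq2 1.42.0, limma-voom (limma 3.58.1), a cutoff of 0.01, leaving out libraries singly, a replicate block, another set of libraries in the fit, and dropping the 4 BAT libraries with conflicting labels. Dropping both libraries that stand apart, the list counts without WAT_5C replicate 1, and the Tcf21 bound without each library, were added after seeing the data. The script was tested on simulated data.

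The 10 factors and all gene lists were chosen with earlier results of these data known. Of 197 listed symbols, 195 matched. Named are all 10 factors, up to 4 genes of each list with the smallest adjusted p per depot comparison, the 2 genes most like each factor, and any other list gene with its values.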

Additional observations from a re-analysis of the deposited data

Results flagged for a closer look

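In 4 of 38 sets of 4 libraries, 1 per factor and group, a library lay far from the rest of its group, and chance flags about 1 in 20 groups. Ebf1 was at 141.2 CPM in BAT_5C replicate 4, against 129.3 to 131.0 CPM in the other 3 libraries, which is a small step in a tight group. Ebf2 was at 36.6 CPM in WAT_5C replicate 1, against 13.8 to 17.0 CPM. Tbx15 was at 28.3 CPM in that library, against 10.3 to 13.3 CPM. Zfp423 was at 33.0 CPM in BAT_30C replicate 1, against 13.0 to 15.8 CPM.

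The cold response of Ebf2 differed between the depots, at -1.35 on the log2 scale for BAT minus WAT, by a test of the difference itself.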

How the results depend on the processing

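Of 974 values of single factors under alternative settings, 874 kept their direction and their side of the threshold, 29 came to pass it, 24 ceased to and 47 changed direction. The cause was not tested for any of them. Zic1, Ebf2, Ebf3 and Prdm16 passed in both depot comparisons under all 26 alternatives run for each.

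With library totals the depot difference of Ebf1 at 5 °C was -0.023 and that of Zfp423 was -0.36 at 5 °C and -0.37 at 30 °C. In the same setting the cold differences in BAT were -0.32 for Zic1, -0.092 for Tbx15 and -0.13 for Zfp423, and those in WAT were -0.26 for Ebf1, -0.059 for En1 and -0.14 for Zfp423. With limma-voom, Prdm16 was at 0.32 for the difference of cold responses, Zic1 at -0.035 in BAT, and Ebf1 at -0.11 and Zfp423 at -0.054 in WAT. Tbx15 in WAT was at 0.017 with RLE factors and with DESeq2 and at 0.016 with all 16 libraries in 1 fit. Without the 4 BAT libraries with conflicting labels the difference of cold responses was -0.13 for Zic1, -0.065 for Tbx15 and -0.19 for Zfp423, and the cold difference in BAT was -0.39 for Zic1, -0.11 for Tbx15 and -0.018 for Zfp423. Without both libraries that stand apart, chosen after seeing the data, Zfp423 was at -0.0093 between the depots at 30 °C and Prdm16 at 0.59 for the difference of cold responses. None of these passed the threshold.

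For the difference of cold responses the number of genes past the threshold was 6797 with limma-voom, 2109 at an adjusted p of 0.01 and 1695 without the conflicting libraries, against 4055. The number of factors was 2 with library totals and with limma-voom, 0 at 0.01 and without the conflicting libraries, and 3 without both libraries that stand apart, against 1. Cold changed 6058 genes in BAT without the conflicting libraries, against 9647. In WAT it changed 82 genes with library totals, 25 with no filter, 1119 with DESeq2, 2268 with limma-voom, 0 at 0.01 and 1587 with all 16 libraries in 1 fit, against 12.

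With 1 library left out at a time, 3221 to 6222 genes and 0 to 2 factors passed for the difference of cold responses, and 0 to 408 genes for cold in WAT. The difference of cold responses ranged from -0.14 to 0.75 for Zic1, -0.26 to 0.33 for Prdm16, -0.19 to 0.66 for En1 and -0.10 to 0.46 for Zfp423. The cold difference ranged from -0.18 to 0.20 for Zic1 in BAT, and in WAT from -0.18 to 0.14 for Ebf1, -0.049 to 0.54 for Ebf2, -0.44 to 0.15 for Tbx15 and -0.15 to 0.33 for Zfp423. None of these factors passed in any of these fits.

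Equal replicate numbers were not shown to pair libraries, with residual correlations of 0.0108 to 0.287 between BAT and WAT at 5 °C and -0.238 to 0.0547 at 30 °C. The 0.287 was that of replicate 1, where BAT_5C had 11457 counts of Xist and 9 of the Y-linked genes. WAT_5C replicate 1 had 3 and 17183, so by these counts the pair differed in sex and was not from 1 mouse. The replicate block still treated it as a pair. With a replicate block, Prdm16 was at 0.034 for the difference of cold responses. In this setting 7, 8, 1, 5 and 0 factors passed in the comparisons of depot at 5 °C, depot at 30 °C, cold responses, cold in BAT and cold in WAT. In the same order, 13811, 13239 and 3384 of 19481 genes, 9091 of 16213 and 0 of 18975 passed. Depth limits Tcf21 and, in WAT, Zic1.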
